A study of Mus musculus with 6 samples.

Results

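The genes described here sense cellular sterol, or carry out lipoprotein uptake and cholesterol efflux: Srebf1, Srebf2, Scap, Insig1, Insig2, Nr1h2, Mylip, Abca1 and Abcg1. They were taken by gene symbol from a table of expression by gene, and all 9 were found among its 16403 genes. RNA was sequenced in bulk from LSK cells, the lineage-negative, Sca-1-positive, Kit-positive marrow fraction that holds blood stem cells and multipotent progenitors. The 3 LIP libraries came from C57BL/6 mice with ligature-induced periodontitis, a gum inflammation caused by a thread tied around a tooth. The 3 NL libraries (no ligature) came from C57BL/6 mice that carried no thread. Marrow was taken on day 7 in both groups, and each library pooled the sorted cells of 3 mice, so differences between single mice were not measured and p-values rest on the spread between pools. In bulk RNA, fewer cells of a type and less RNA per cell cannot be told apart.

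Cholesterol in the endoplasmic reticulum sets the activity of this circuit. When sterol is low, SCAP escorts the SREBP precursors to the Golgi, where proteolysis releases the transcription factor: SREBP2, from Srebf2, mainly drives cholesterol synthesis and lipoprotein uptake, and SREBP1, from Srebf1, mainly drives fatty acid synthesis. When sterol is high, INSIG1 and INSIG2 hold SCAP in the endoplasmic reticulum, while oxysterols activate the liver X receptors (LXR), which raise the efflux transporters ABCA1 and ABCG1 and the ubiquitin ligase MYLIP, also called IDOL, which sends lipoprotein receptors to degradation. In mouse blood progenitors, loss of ABCA1 and ABCG1 is known to raise membrane cholesterol and expand the myeloid output.

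Insig1 and Srebf2 were lower in LIP libraries and Mylip was higher. The other 6 genes (Srebf1, Scap, Insig2, Nr1h2, Abca1 and Abcg1) did not pass the test. A call was an adjusted p below 0.05 in edgeR's quasi-likelihood test with Benjamini-Hochberg adjustment over the 12564 genes tested. Of the genes tested 29.9% were called, with 14.1% of the tested genes higher and 15.8% lower in LIP. The 3 calls among 9 genes (1 higher, 2 lower) were thus near the background share. With DESeq2, 9.86% of genes were called higher and 11.1% lower, and 0 of the 9 genes were called higher and 2 lower. The median absolute log2 change of all called genes was 0.20, against 0.59 for Insig1, 0.14 for Srebf2 and 0.16 for Mylip.

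The promoters of 4 of these genes are shown because they carry, or in the case of Insig1 do not carry, the letters of sites named for the factors contrasted here. RefSeq start sites gave windows for 8 of the 9 genes, Abcg1 being the exception. Each sequence is the 250 bases upstream of a start, printed on the gene's own strand in build GRCm38.p6. Capitals mark a match, on either strand, to TCACNCCA, letters of a sterol regulatory element, or to a DR4-type LXR element, written as GGTNA, 5 unspecified bases and GGTNA again. The windows are Insig1 at chr5:28071162-28071411 (plus strand), Srebf2 at chr15:82147019-82147268 (plus strand), the third of 3 Srebf1 windows at chr11:60210472-60210721 (minus strand) and Abca1 at chr4:53159896-53160145 (minus strand).
Insig1: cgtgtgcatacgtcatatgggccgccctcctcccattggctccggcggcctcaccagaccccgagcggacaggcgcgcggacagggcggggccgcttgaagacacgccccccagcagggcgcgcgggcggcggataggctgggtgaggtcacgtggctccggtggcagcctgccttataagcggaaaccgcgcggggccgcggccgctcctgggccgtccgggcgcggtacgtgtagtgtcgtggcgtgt
Srebf2: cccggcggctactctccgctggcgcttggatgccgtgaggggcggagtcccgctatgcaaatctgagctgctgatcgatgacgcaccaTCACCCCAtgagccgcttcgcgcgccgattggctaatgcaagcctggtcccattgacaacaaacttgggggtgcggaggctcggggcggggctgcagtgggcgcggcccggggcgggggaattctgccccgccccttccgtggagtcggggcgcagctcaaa
Srebf1: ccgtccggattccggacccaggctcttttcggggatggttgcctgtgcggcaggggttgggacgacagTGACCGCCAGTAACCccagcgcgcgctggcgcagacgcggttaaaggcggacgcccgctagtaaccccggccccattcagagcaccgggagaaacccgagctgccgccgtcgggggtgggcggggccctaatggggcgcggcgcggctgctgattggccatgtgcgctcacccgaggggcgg
Abca1: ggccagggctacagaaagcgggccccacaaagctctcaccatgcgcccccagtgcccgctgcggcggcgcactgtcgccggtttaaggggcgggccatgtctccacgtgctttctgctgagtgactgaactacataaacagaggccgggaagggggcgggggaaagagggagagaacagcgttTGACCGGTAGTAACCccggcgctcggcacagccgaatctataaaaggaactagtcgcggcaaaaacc

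Srebf2 had its sterol element match beginning 162 bases before the start, and a CCAAT box, bound by NF-Y, 135 bases before it. The Insig1 window held no TCACNCCA match, but it had CCAAT at 216 bases, an E-box (CACGTG) at 101 bases and GGGCGG, the letters of a GC box, at 229, 167 and 126 bases before the start. The Srebf1 and Abca1 windows shown each held 1 match to the LXR letters, at 182 and 67 bases before the start, both read on the opposite strand. Srebf1 windows 1 and 2, which are not shown, held no match to the LXR letters or to TCACNCCA. Nor did any window of Mylip, Nr1h2, Scap or Insig2, although Mylip is an LXR target. In all 32851 promoter windows of the same length, 3.67% held TCACNCCA, 0.621% held the LXR letters, 33.8% held CCAAT, 32.7% held GGGCGG and 6.02% held CACGTG, on either strand. In the windows of tested genes, to which all 9 genes belong, the shares were 3.28%, 0.373%, 35.6%, 56.1% and 8.18% in the same order. The letters were chosen with these promoters in view, and a match is a description of the sequence, not a measured binding site. TCACNCCA and CCAAT can share their CCA letters, which they did not do in the Srebf2 window.

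Insig1, the feedback inhibitor whose own transcription follows SREBP activity, had 27.5, 26.5 and 31.1 CPM in LIP libraries, against 43.2, 41.4 and 43.6 CPM in NL libraries. CPM are counts scaled to the library total and adjusted between libraries by TMM factors. All 3 LIP libraries lay well below all 3 NL libraries. Insig1 (chr5:28071412-28078662) averaged 28.4 ± 2.42 CPM in LIP and 42.7 ± 1.18 CPM in NL (SD, n = 3 each), a log2 fold change of -0.59 with a standard error of 0.0571 (adjusted p = 1.63e-12, edgeR quasi-likelihood test). Its 95% interval ran from -0.70 to -0.48, and it ranked 56 among the tested genes by p-value. Its paralog Insig2, which also holds SCAP but is not driven by SREBP in the same way, had 14.2, 16.5 and 15.0 CPM in LIP libraries, against 16.0, 14.8 and 16.0 CPM in NL libraries. The groups overlapped for Insig2 (chr1:121304353-121332662), whose log2 fold change of -0.03 had a 95% interval of -0.19 to 0.13.

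Srebf2, the gene for the cholesterol-directed SREBP, had 275, 263 and 273 CPM in LIP libraries, against 293, 299 and 303 CPM in NL libraries. Every LIP library was below every NL library, by a small margin. Srebf2 (chr15:82147269-82205379) had a log2 fold change of -0.14 with a standard error of 0.0322 (adjusted p = 0.000475, edgeR quasi-likelihood test), which is 0.907 times the NL level. In the authors' TPM, which scale counts by transcript length to one total per library, Srebf2 spanned 100.9 to 102.9 in LIP and 102.3 to 105.8 in NL, so the groups overlapped on that scale. There limma on log2(TPM + 0.5) gave -0.02 (adjusted p = 0.588), on a scale where the median of all tested genes stood at 0.12. Relative to that median the Srebf2 difference was -0.14. On TPM 36.4% of genes were called higher and 4.3% lower, and 4 of the 9 genes were called higher and 1 lower. With total counts in place of TMM scaling, 21.9% were called higher and 10.4% lower, and 2 of the 9 genes were called higher and 2 lower.

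Srebf1 (chr11:60199084-60224186), the gene for the fatty acid-directed SREBP and itself an LXR target, had 102.0, 105.5 and 109.9 CPM in LIP libraries, against 104.1, 110.4 and 111.3 CPM in NL libraries. The groups overlapped, and the log2 fold change was -0.04 (95% interval -0.11 to 0.04). Scap (chr9:110333288-110384949), the escort and sterol sensor, had 120.3, 120.8 and 122.4 CPM in LIP libraries, against 116.3, 117.5 and 119.9 CPM in NL libraries. The Scap groups did not overlap, yet its log2 fold change of 0.04 did not pass the test (adjusted p = 0.442, edgeR quasi-likelihood test). In all, 4 of the 9 genes had groups that did not overlap, Mylip and Scap with LIP above and Insig1 and Srebf2 with LIP below. Among all tested genes 40.9% had no overlap, 19.9% with LIP above and 21% with LIP below.

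**Figure D1:**
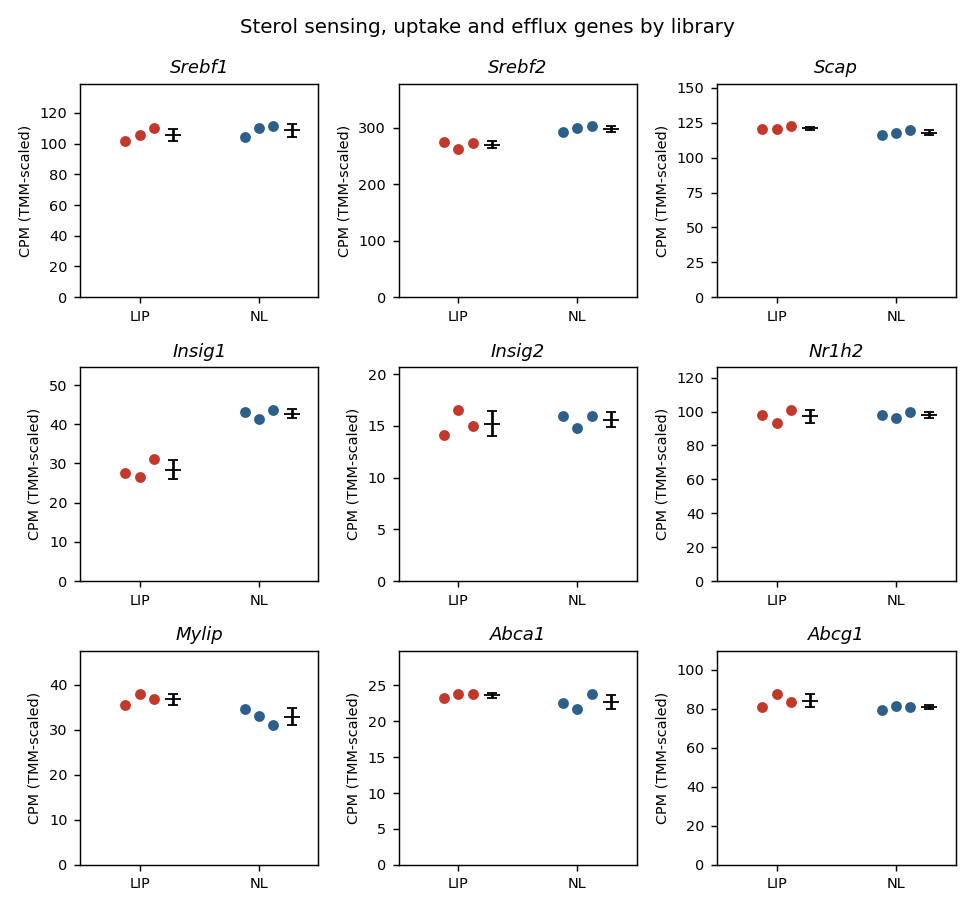
TMM-scaled CPM of the 9 genes, 1 panel a gene, with each LIP library (left) and NL library (right) as a point and the mean ± SD of 3 libraries as a bar. Relative to its level Insig1 shows the widest gap, with LIP libraries between 26.5 and 31.1 CPM and NL libraries between 41.4 and 43.6 CPM.

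On the LXR side, Nr1h2 encodes LXR-beta, the broadly expressed of the LXR receptors. Nr1h2 (chr7:44549616-44553968) had 97.8, 93.1 and 100.8 CPM in LIP libraries, against 98.2, 96.4 and 99.6 CPM in NL libraries. The groups overlapped, with a log2 fold change of -0.01 (95% interval -0.09 to 0.07). Nr1h3, which encodes LXR-alpha and was singled out after its values were seen, averaged 1.35 ± 0.170 CPM in LIP and 1.48 ± 0.395 CPM in NL (SD, n = 3 each).

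Mylip, an LXR target, had 35.6, 38.0 and 36.9 CPM in LIP libraries, against 34.7, 33.1 and 31.1 CPM in NL libraries. The LIP libraries lay above the NL libraries, with a narrow gap between the lowest LIP and the highest NL library. Mylip (chr13:45389742-45411940) had a log2 fold change of 0.16 with a standard error of 0.0557 (adjusted p = 0.0229, edgeR quasi-likelihood test). That call was not held by DESeq2 (adjusted p = 0.1) nor by edgeR without LIP replicate 2 (adjusted p = 0.0976), without NL replicate 2 (adjusted p = 0.0526) or without NL replicate 3 (adjusted p = 0.15). Its fold change stayed positive in each of those.

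Abca1 (chr4:53030789-53159988), which exports cholesterol to lipid-poor apolipoprotein, had 23.2, 23.8 and 23.8 CPM in LIP libraries, against 22.6, 21.7 and 23.7 CPM in NL libraries. Abcg1 (chr17:31057694-31117984), which exports cholesterol to mature HDL particles, had 81.0, 87.5 and 83.5 CPM in LIP libraries, against 79.5, 81.4 and 81.1 CPM in NL libraries. The groups overlapped for both transporters. The log2 fold change was 0.06 for each, with a 95% interval of -0.07 to 0.19 for Abca1 and of -0.02 to 0.14 for Abcg1. These intervals leave room for a small fall, no change or a small rise, and they do not reach a change of the size seen for Insig1.

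**Figure D2:**
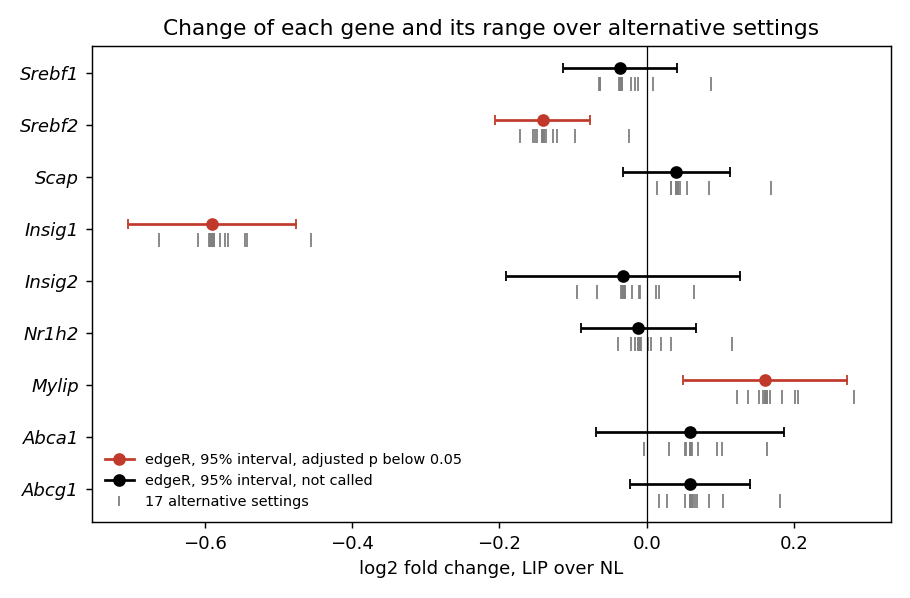
Log2 fold change of LIP over NL for the 9 genes, with the edgeR 95% interval as a line and the range over alternative settings behind it. Insig1 lies at -0.59, Srebf2 at -0.14 and Mylip at 0.16, and the intervals of the other genes include 0.

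SREBP2 targets were mostly lower in LIP. Of the tested LXR targets 15.4% were called, against 29.9% of all tested genes called either way. Over all tested genes 14.1% were called higher and 15.8% lower, the shares against which each list below is read. Of 26 SREBP2 targets, among them Insig1 and Srebf2, 19 were called lower and 0 higher in LIP, with a median log2 fold change of -0.35, against -0.0007 over all tested genes. Called higher were 0 by DESeq2 and 0 by limma-voom as well, and 0 at an unadjusted edgeR p below 0.05. Without Insig1 and Srebf2, 17 of 24 were called lower and the median was again -0.35. The table held 17 LXR targets, of which 13 were tested, 2 were called higher and 0 lower by edgeR, with a median of 0.05 that turned to -0.0041 with a length offset and to -0.0116 without LIP replicate 1. DESeq2 called 1 higher and 0 lower, limma-voom called 2 higher and 0 lower, and 1 was lower at an unadjusted edgeR p below 0.05. Without the 4 LXR targets among the described genes (Srebf1, Mylip, Abca1 and Abcg1), 1 of 9 was called higher and the median was -0.07. The lists share no gene, and the difference between their medians was not tested. The SREBP2 list was drawn up with earlier results of these data known, so its direction is not independent evidence.

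The SREBP2 targets called lower act at several steps of sterol synthesis and transport. Stard4, a soluble sterol carrier, averaged 62.1 ± 1.45 CPM in LIP and 80.3 ± 1.20 CPM in NL (SD, n = 3 each), a log2 fold change of -0.37. The synthesis enzymes Cyp51, Msmo1, Idi1 and Fdps had log2 fold changes of -0.77, -0.75, -0.69 and -0.40. Insig1, at -0.59, fell within the range of these enzymes, while Srebf2, at -0.14, fell by less than any of them. They were named for their small p-values, so their range is not that of the list. Of the 26 targets 7 were not called, among them Ebp and Pmvk, each at -0.12 and singled out after their values were seen. Among the LXR targets Arl4c, a small GTPase linked to cholesterol efflux, averaged 28.7 ± 1.88 CPM in LIP and 24.7 ± 0.481 CPM in NL (SD, n = 3 each), a log2 fold change of 0.21 (adjusted p = 0.00547, edgeR quasi-likelihood test). Without LIP replicate 1 the Arl4c fold change was 0.16 (adjusted p = 0.0714, edgeR). Smpdl3a, an LXR-responsive phosphodiesterase, averaged 102 ± 0.590 CPM in LIP and 107 ± 3.79 CPM in NL (SD, n = 3 each) and was not called.

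**Figure D3:**
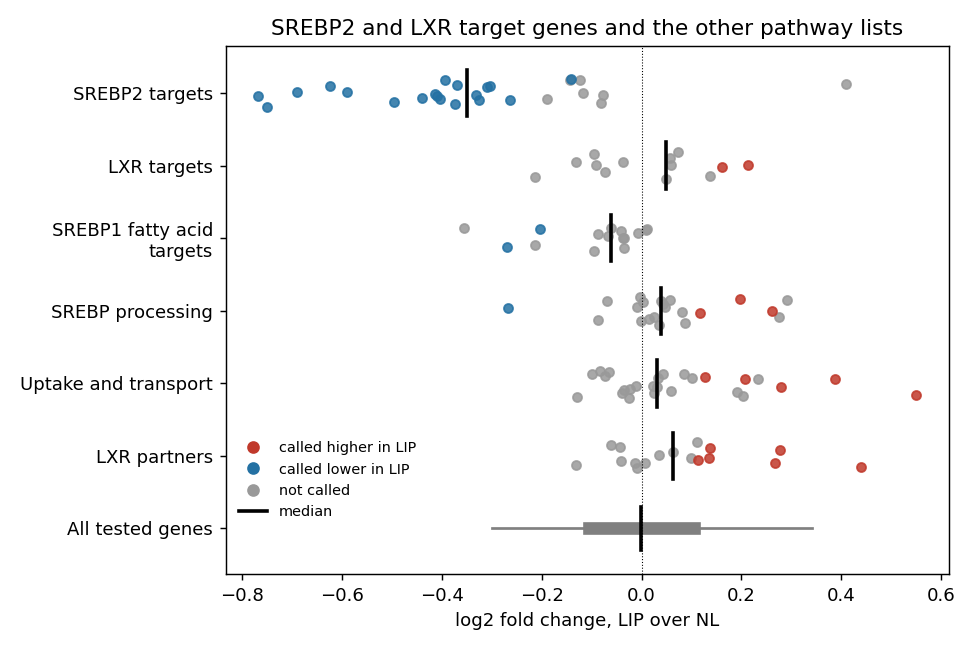
Log2 fold change of LIP over NL for each tested gene of 6 pathway lists, coloured by its call, with the list median as a black bar; the bottom row gives the 25th to 75th (thick) and 5th to 95th (thin) percentiles of all tested genes. The SREBP2 targets centre on -0.35, while the LXR targets centre on 0.05.

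The contrast was also drawn library by library. The median log2 level of the 24 SREBP2 targets other than Insig1 and Srebf2, each set against its NL mean, was -0.32, -0.33 and -0.34 in LIP libraries, against -0.0086, -0.0071 and 0.03 in NL libraries. The groups stood far apart beside the spread within each. Setting each gene against its own NL mean holds the NL medians near 0. The SREBP2 list was drawn up with earlier results known, so this view adds no independent evidence. For the 9 other LXR targets the median was 0.07, -0.07 and -0.04 in LIP libraries, against 0.03, -0.0033 and -0.02 in NL libraries. Here the groups overlapped.

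**Figure D4:**
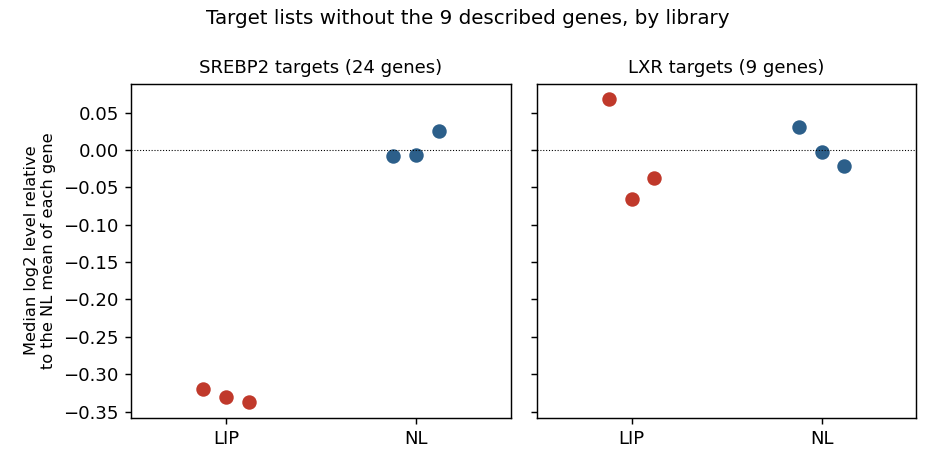
Median log2 level of the 24 SREBP2 targets (left) and 9 LXR targets (right) other than the described genes, relative to each gene's NL mean, with 1 point a library. SREBP2 targets lie between -0.34 and -0.32 in LIP libraries and near 0 in NL libraries, and LXR targets overlap.

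Of 15 tested genes listed here as SREBP1 fatty acid targets, 2 were called lower and 0 higher by edgeR, with a median of -0.06. The 2 calls were 13.3% of the list, against 15.8% of all tested genes called lower. On TPM the list's median was 0.0664, where that of all tested genes was 0.1171. DESeq2 and limma-voom also counted 2 lower and 0 higher, and 0 were higher at an unadjusted edgeR p below 0.05. Scd2, a stearoyl-CoA desaturase, averaged 334.5 ± 15.0 CPM in LIP and 403 ± 4.27 CPM in NL (SD, n = 3 each), a log2 fold change of -0.27 (adjusted p = 2.26e-09, edgeR quasi-likelihood test). Aacs, which makes acetoacetyl-CoA, averaged 28.4 ± 0.467 CPM in LIP and 32.7 ± 0.609 CPM in NL (SD, n = 3 each), a log2 fold change of -0.20. The Aacs call was lost on TPM (-0.0733, adjusted p = 0.282, limma). Fads1, a fatty acid desaturase, and Acss2, an acetyl-CoA synthetase, had log2 fold changes of -0.10 and -0.09 and were not called. With the length offset Fads1 was called (-0.1113, adjusted p = 0.0271, edgeR).

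The machinery that moves and cleaves SREBP showed 3 higher and 1 lower among 21 tested genes, with a median of 0.04. In all 19% of the list was called, against 29.9% of all tested genes. The higher genes encode COPII coat proteins, which load cargo at the endoplasmic reticulum: Sec24d at 0.26, Sec24b at 0.20 and Sec24c at 0.12 on the log2 scale. The COPII genes Sec24a (0.08) and Sec23a (0.04), added here after their values were seen, were not called. The Sec24c call was lost without LIP replicate 2 (0.10, adjusted p = 0.0637, edgeR) and without NL replicate 3 (0.09, adjusted p = 0.0809, edgeR). Trim13, a ubiquitin ligase of the endoplasmic reticulum, was lower at -0.27, a call lost on TPM (-0.1351, adjusted p = 0.0731, limma).

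Of 26 uptake and intracellular transport genes outside the SREBP2 list, 5 were called higher and 0 lower by edgeR, with a median of 0.03. The calls made up 19.2% of the list, against 14.1% of all tested genes called higher and 29.9% called either way. DESeq2 and limma-voom also counted 5 and 0, and 2 were lower at an unadjusted edgeR p below 0.05. Lrp1, a large endocytic receptor, averaged 26.2 ± 1.29 CPM in LIP and 17.9 ± 0.596 CPM in NL (SD, n = 3 each), a log2 fold change of 0.55 (adjusted p = 1.39e-09, edgeR quasi-likelihood test). Vldlr, a lipoprotein receptor that MYLIP also targets, averaged 60.4 ± 2.18 CPM in LIP and 46.2 ± 2.01 CPM in NL (SD, n = 3 each), a log2 fold change of 0.39 (adjusted p = 2.57e-09, edgeR quasi-likelihood test). The lipid transporters Abca7 and Abca2 had log2 fold changes of 0.28 and 0.13. The Abca2 call was lost with the length offset (0.0701, adjusted p = 0.0755, edgeR). Soat1, which esterifies cholesterol for storage and was named after its values were seen, had 0.21.

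Partners of LXR gave 6 higher and 0 lower by edgeR among 17 tested genes, with a median of 0.06. The calls made up 35.3% of the list, against 14.1% of all tested genes called higher and 29.9% called either way. DESeq2 and limma-voom each counted 4 higher and 0 lower, and 0 were lower at an unadjusted edgeR p below 0.05. The corepressor Ncor1 had a log2 fold change of 0.14, and Rxra, one of the RXR genes that encode the partner receptors of LXR, had 0.28. Rxrb, another of them and added after its values were seen, averaged 124.5 ± 3.09 CPM in LIP and 128 ± 3.61 CPM in NL (SD, n = 3 each) and was not called (-0.04). Cyp27a1, which makes an oxysterol that activates LXR, averaged 7.35 ± 1.31 CPM in LIP and 5.42 ± 0.239 CPM in NL (SD, n = 3 each), a log2 fold change of 0.44 (adjusted p = 0.00484, edgeR quasi-likelihood test). Without LIP replicate 3 its fold change was 0.30 (adjusted p = 0.0911, edgeR).

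Markers of other blood cells also differed, and their counts are to be read against 14.1% of all tested genes called higher and 15.8% lower. Summed over 18 monocyte and macrophage markers, levels were 1022 to 1052 CPM in LIP libraries and 782.5 to 801.6 CPM in NL libraries. Of 17 tested, 9 were called higher and 1 lower. The largest terms of that sum were Ly6c2 and F13a1. Log2 fold changes were above 0 for 11 of the 17 and below 0 for 6. Those below 0 were C1qb (-0.37, the lower call) and, not called, Siglec1, C1qc, Mertk, C1qa and Cd163. These genes were named after their values were seen. Summed neutrophil markers were 335.5 to 357.2 CPM in LIP and 239.5 to 255.2 CPM in NL (9 of 11 tested higher), and summed B-lineage markers were 118.9 to 123.6 CPM in LIP and 96.1 to 99.95 CPM in NL (7 of 11 higher). Summed erythroid markers were 1337 to 1379 CPM in LIP and 1484 to 1517 CPM in NL, with 3 of 14 higher and 5 lower. No marker of these lists was at 0 in every library, and Ly6g, a defining neutrophil marker, spanned 0 to 0.0523 CPM in LIP and 0 to 0.171 CPM in NL. Of the genes that define the sort, Kit was higher (576, 592.5 and 576 CPM in LIP libraries, against 514, 515 and 508 CPM in NL libraries), while Ly6a, which encodes Sca-1, was expressed in all 6 libraries and not called. The part of these cells in the Insig1, Srebf2, Mylip, Lrp1 and Cyp27a1 results was not tested.

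Per length, Srebf2 was the most abundant of the 9 genes, at 102.2 ± 1.10 TPM in LIP and 103.9 ± 1.77 TPM in NL (SD, n = 3 each). Nr1h2, Scap and Srebf1 followed in both groups, at 90.3, 52.7 and 44.7 TPM in LIP and 83.3, 46.9 and 42.0 TPM in NL. Insig2, at 10.7 TPM in LIP and 10.2 TPM in NL, and Abca1, at 4.14 TPM in LIP and 3.65 TPM in NL, were the lowest. The middle of the order differed. In LIP it ran Abcg1 (24.8 to 27.8 TPM), Mylip (21.6 to 23.9 TPM) and Insig1 (18.9 to 21.6 TPM), with the Mylip and Insig1 ranges nearly touching, and in NL it ran Insig1 (26.3 to 27.9 TPM), Abcg1 (22.8 to 23.2 TPM) and Mylip (17.6 to 19.7 TPM). No neighbouring pair in either order overlapped across its 3 libraries, and the authors' FPKM gave the same order.

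**Figure D5:**
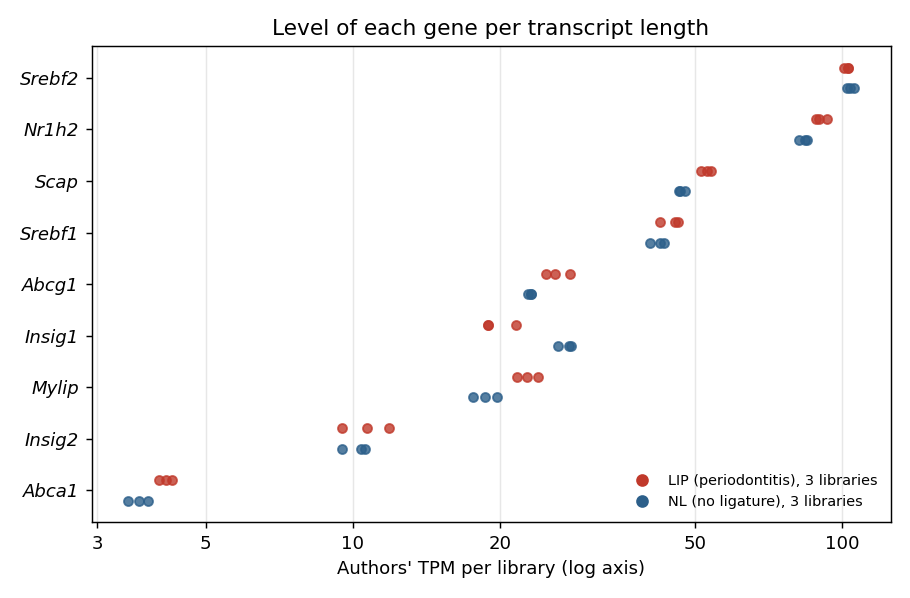
The authors' TPM of the 9 genes on a log axis, with 1 point a library and LIP drawn above NL. Insig1 stands at 18.9 to 21.6 TPM in LIP and 26.3 to 27.9 TPM in NL, changing its place with Abcg1 and Mylip.

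Within pairs that do like work, the ratio of Insig1 to Insig2 in TPM was 1.99, 1.60 and 2.02 in LIP libraries, against 2.61, 2.76 and 2.69 in NL libraries. All LIP ratios lay below all NL ratios. The log2 difference was -0.53 (exact two-sided permutation p = 0.1, the smallest that 3 against 3 allows, and 0.2 adjusted over the 2 ratios computed). For Abca1 over Abcg1 the ratio was 0.158 ± 0.00456 in LIP and 0.159 ± 0.00758 in NL (SD, n = 3 each, exact permutation p = 0.9). The groups overlapped.

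The genes whose log2 CPM over the 6 libraries ran most like Insig1 were Trmo, Dynlt1c, Sptssa, S100a10 and Ptcd2, with Pearson r between 0.995 and 0.997 among 9927 genes compared. With 6 libraries in 2 groups, such a likeness mostly restates the group difference, and 4 of the 5 (all but Ptcd2) were called lower in LIP. For Abca1 they were Atad5, Chd1l, Pde4d, Adpgk and Acot9, with r between 0.963 and 0.991, of which Chd1l alone was called, as higher.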

How the data were processed

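LSK messenger RNA was sequenced as polyA-selected libraries on a BGISEQ instrument with 100 bp paired-end reads, per the labels' protocols. The submitters' processing notes list STAR, HTSeq and GRCm38 without roles. The deposited table held the authors' estimated counts, FPKM and TPM per library, per the file headers. Which tool made the estimated counts is not stated in the sources used. The design assumed whole counts, so the estimated counts were rounded first, and all 9 genes had whole counts. Library totals were 17780853 to 18841103, and 3 counts equal 0.159 to 0.169 CPM, with counting error alone in that floor.

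Genes passed filterByExpr, were scaled by TMM and tested with edgeR 4.0.16 (quasi-likelihood, robust, group as the only term) in R 4.3.3, after a check on simulated data. Standard errors were derived from the F statistic. Alternatives used DESeq2 1.42.0, limma 3.58.1 with voom or on log2(TPM + 0.5), other scalings and filters, a length offset, a replicate block and leaving out each library. TPM and FPKM from the authors served for levels between genes.

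The genes, lists and motifs were chosen with earlier results of these data known. Besides the 9 genes, the text names by rule the 8 SREBP2 targets and up to 4 genes of each other pathway list with the smallest p-values, and the 5 genes most like Insig1 and Abca1 among those whose average log2 CPM reached 3. Among the genes taken by that rule, 4 are not reported here.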

Additional observations from a re-analysis of the deposited data

How the results depend on the processing

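Insig1 kept its call in all 17 alternatives, at -0.66 to -0.46. Srebf2 kept its call in all but limma on TPM, which gave -0.0239. Of the calls over all genes 47.2% were higher in LIP, against 67.9% with total counts alone and 89.4% in TPM, where the median of all genes was 0.0436 and 0.117. Genes called higher and lower numbered 1776 and 1984 by edgeR, 1167 and 1317 by DESeq2, 2756 and 1301 with total counts alone and 4572 and 540 on TPM. Total counts alone gave Srebf1 0.0078, Insig2 0.0122, Nr1h2 0.0325 and Abcg1 0.103 (now called), 2 described genes and 5 LXR targets higher, and medians of -0.3056 (SREBP2 targets), 0.0934 (LXR targets), 0.1069 (LXR partners), -0.016 (fatty acid genes), 0.0838 (SREBP processing) and 0.0761 (uptake). TPM gave Srebf1 0.087, Insig2 0.0635, Nr1h2 0.1157, Scap 0.1681, Abcg1 0.1812, Acss2 0.0388, Fads1 0.0306 and Smpdl3a 0.0562. It called 4 described genes higher and 1 lower, 5 LXR targets, 10 LXR partners, 14 processing, 14 uptake and 2 fatty acid genes higher, and 1 fatty acid and 0 processing genes lower, with medians of -0.2226, 0.1411, 0.1785, 0.0664, 0.1618 and 0.1632 in the order of lists above. The length offset gave Abca1 -0.0041 and Nr1h2 0.0058, medians of -0.0041 (LXR targets) and 0.0244 (LXR partners), and 2 LXR partners, 2 processing and 4 fatty acid genes lower. DESeq2 gave Mylip 0.1624 (not called), 0 described genes and 1 LXR target higher. Without a filter the LXR partner median was 0.1021. Beyond scale, the cause of these differences was not tested.

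Leaving out 1 library at a time, values spanned -0.0954 to 0.0161 for Insig2, -0.039 to 0.0191 for Nr1h2, 0.1221 to 0.2009 for Mylip, 0.0295 to 0.0948 for Abca1, 0.0278 to 0.0838 for Abcg1 and -0.065 to -0.0116 for Srebf1. Calls spanned 0 to 1 described genes higher, 1 to 2 LXR targets higher and 0 to 1 lower, 1 to 2 processing genes lower and 0 to 1 uptake genes lower. Medians spanned -0.3766 to -0.3341 (SREBP2 targets), -0.0116 to 0.0526 (LXR targets), 0.0254 to 0.1046 (LXR partners) and 0.0263 to 0.0537 (SREBP processing). The Abca1 to Abcg1 log2 ratio, -0.0012 in TPM, was 0.0011 in counts and spanned -0.0396 to 0.0282 with 1 library left out.

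The labels do not say that the replicate numbers pair the samples. Deviations of same-numbered libraries correlated at 0.03, -0.016 and -0.113, and not every library was most like its own number. With 3 libraries a group, such correlations cannot decide whether a litter, day or batch was shared. With a replicate block 1750 genes were called higher and 1979 lower, against 1776 and 1984 without it. Insig1 was -0.5911 with the block, and no call of the 9 genes changed.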
